A study of Mus musculus with 22 samples.

Results

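The Eph receptors and ephrins described here are 10 genes, Ephb2, Ephb3, Ephb4, Epha1, Epha2, Epha4, Efna1, Efna4, Efnb1 and Efnb2, taken by name from the 52636 genes of the deposited table, where each was found once. Their values were read in the 22 RNA-seq libraries of organoids grown from the duodenal epithelium of adult wild type mice of the outbred CD1 strain. Organoid lines from 4 mice, called lines 1 to 4, each had 1 untreated library. Of these, lines 1, 2 and 4 were also sequenced once in each of 6 groups exposed to cold atmospheric plasma (CAP), an ionized gas that carries reactive oxygen and nitrogen species. CAP was applied to the culture itself from day 1 after replating, and its medium was changed after 30 min or 24 h (direct CAP). Otherwise the organoids received medium from another treated culture (indirect CAP) or medium that had been treated without organoids (plasma-activated medium, PAM), each from day 1 or from day 2. The groups of day 1 were given new medium once the exposure ended and were kept until day 3, whereas in those of day 2 the conditioned medium had been made on day 1 and stayed until the organoids were collected on day 3. An exposure of 24 h is used here for the conditioned media given from day 1, while the labels of those libraries read 30 min, and this difference could not be settled. Since each line is 1 mouse and line 3 has no treated library, a group stands for at most 4 animals. The passage on the labels is 12, 14, 4 and 4 for lines 1 to 4.

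Eph receptors are receptor tyrosine kinases, and their ligands, the ephrins, are held on the surface of neighbouring cells, so that the signal passes only where cells touch. Type A ephrins are anchored by a lipid and mostly bind EphA receptors, while type B ephrins span the membrane and mostly bind EphB receptors. In the intestine Ephb2 and Ephb3 are known as targets of Wnt signalling that are high at the crypt base, with ephrin-B ligands towards the villus. Repulsion between them keeps Paneth, stem and differentiated cells in their places.

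A deposited value is the number of reads of a gene scaled to 20 M reads per library (M being the SI prefix mega), without division by gene length. Groups were compared on log2(value + 1) with limma's moderated test over all genes that passed a filter on low values. A gene was past the threshold where the adjusted p (Benjamini-Hochberg over those genes) was under 0.01 and the log2 fold change was at least 1 either way. Every comparison with untreated organoids shares the same 4 untreated libraries. The depth was estimated at between 19.9 and 28.6 M reads per library. The cell type label names stem cells, but the untreated libraries held the markers of a mixed epithelium. The summed value was 32557 to 38876 for 5 stem cell markers and 22393 to 30696 for 6 Paneth cell markers. It was 75087 to 132424 for 5 goblet cell markers and 105968 to 124651 for 9 enterocyte markers. Over the 22 libraries, the summed endothelial (5 genes) and mesenchymal (6 genes) markers stayed between 12 and 112 and between 13 and 45. The untreated libraries of lines 1 and 2 each resembled the treated libraries of the other line more than those of their own, so folds within a line and fits with the line as a block are less certain for these lines. In bulk RNA, fewer cells of a type and less RNA per cell cannot be told apart.

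The 250 bases before the start of transcription, or fewer where an annotated transcript starts earlier, are printed for Epha2, Ephb3, Ephb4 and Efna4. These are the receptor that rose and the 3 members that fell past the threshold with PAM from day 2. RefSeq windows on GRCm38.p6 were found for 10 of 10 members. The sequences lie on chr4:141300971-141301220 (+ strand) for Epha2, chr16:21204545-21204754 (+) for Ephb3, chr5:137349859-137350108 (+) for Ephb4 and chr3:89338029-89338278 (- strand) for Efna4. Capitals mark matches, on either strand, to the letters CTTTGAT or CTTTGTT (TCF/LEF), TGANTCA (AP-1), TGACGTCA (CRE) and CATTCC (TEAD), which were picked with the sequences in view.
Epha2: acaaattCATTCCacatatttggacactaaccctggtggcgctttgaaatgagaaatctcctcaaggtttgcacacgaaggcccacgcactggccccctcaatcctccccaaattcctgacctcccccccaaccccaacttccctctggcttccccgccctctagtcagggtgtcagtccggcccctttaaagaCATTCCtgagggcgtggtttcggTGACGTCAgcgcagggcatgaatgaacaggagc
Ephb3: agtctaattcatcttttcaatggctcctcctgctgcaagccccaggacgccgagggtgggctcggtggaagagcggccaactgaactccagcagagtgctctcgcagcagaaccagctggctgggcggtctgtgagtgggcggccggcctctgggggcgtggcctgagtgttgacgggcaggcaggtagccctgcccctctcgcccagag
Ephb4: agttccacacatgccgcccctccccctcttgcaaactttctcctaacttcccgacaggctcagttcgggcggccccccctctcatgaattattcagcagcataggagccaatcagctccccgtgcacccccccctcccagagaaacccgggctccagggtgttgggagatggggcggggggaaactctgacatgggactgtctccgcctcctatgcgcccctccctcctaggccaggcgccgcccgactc
Efna4: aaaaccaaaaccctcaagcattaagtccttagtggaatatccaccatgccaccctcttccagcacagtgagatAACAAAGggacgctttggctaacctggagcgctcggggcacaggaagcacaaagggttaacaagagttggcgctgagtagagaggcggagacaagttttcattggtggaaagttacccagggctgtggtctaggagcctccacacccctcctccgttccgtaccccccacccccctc

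The Epha2 window held 1 match to the CRE letters and 2 to the TEAD letters, and the Efna4 window held 1 to the TCF/LEF letters, while the windows of Ephb3 and Ephb4 held none of the 4. Among the other 6 members, Epha1 and Efnb2, neither past the threshold in any group, held 1 match each to the TEAD letters. For Efna1 only 59 bases were left to scan in 1 window and 0 in the other, so it was hardly read. Of 32536 windows of 250 bases, 8.06% held the TCF/LEF letters, 6.73% the AP-1 letters, 1.56% the CRE letters and 12.6% the TEAD letters. These matches are a description of the letters and do not show that a factor binds.

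To ask which receptors and ligands were most abundant in untreated organoids, levels were compared per kilobase (kb) of exon. Ephb4 was highest, at 1157 ± 119 per kb (SD, n = 4), and its range lay above that of the next member. Efna1 (772 ± 85.2), Efnb1 (676 ± 42.1) and Efnb2 (640 ± 54.9) followed with ranges that overlapped from one to the next. Epha1, Efna4, Ephb3, Ephb2 and Epha2 formed a lower run of overlapping ranges, from 405 ± 35.1 down to 224 ± 81.8 per kb. Epha4 was lowest, at 27.2 ± 11.1 per kb. After PAM from day 2 the order was different: Epha2 was first at 1580 ± 991 per kb (SD, n = 3), Efnb2 second at 867 ± 171, and Ephb4 sixth at 389 ± 103. The range of Epha2 there overlapped that of Efnb2.

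**Figure D1:**
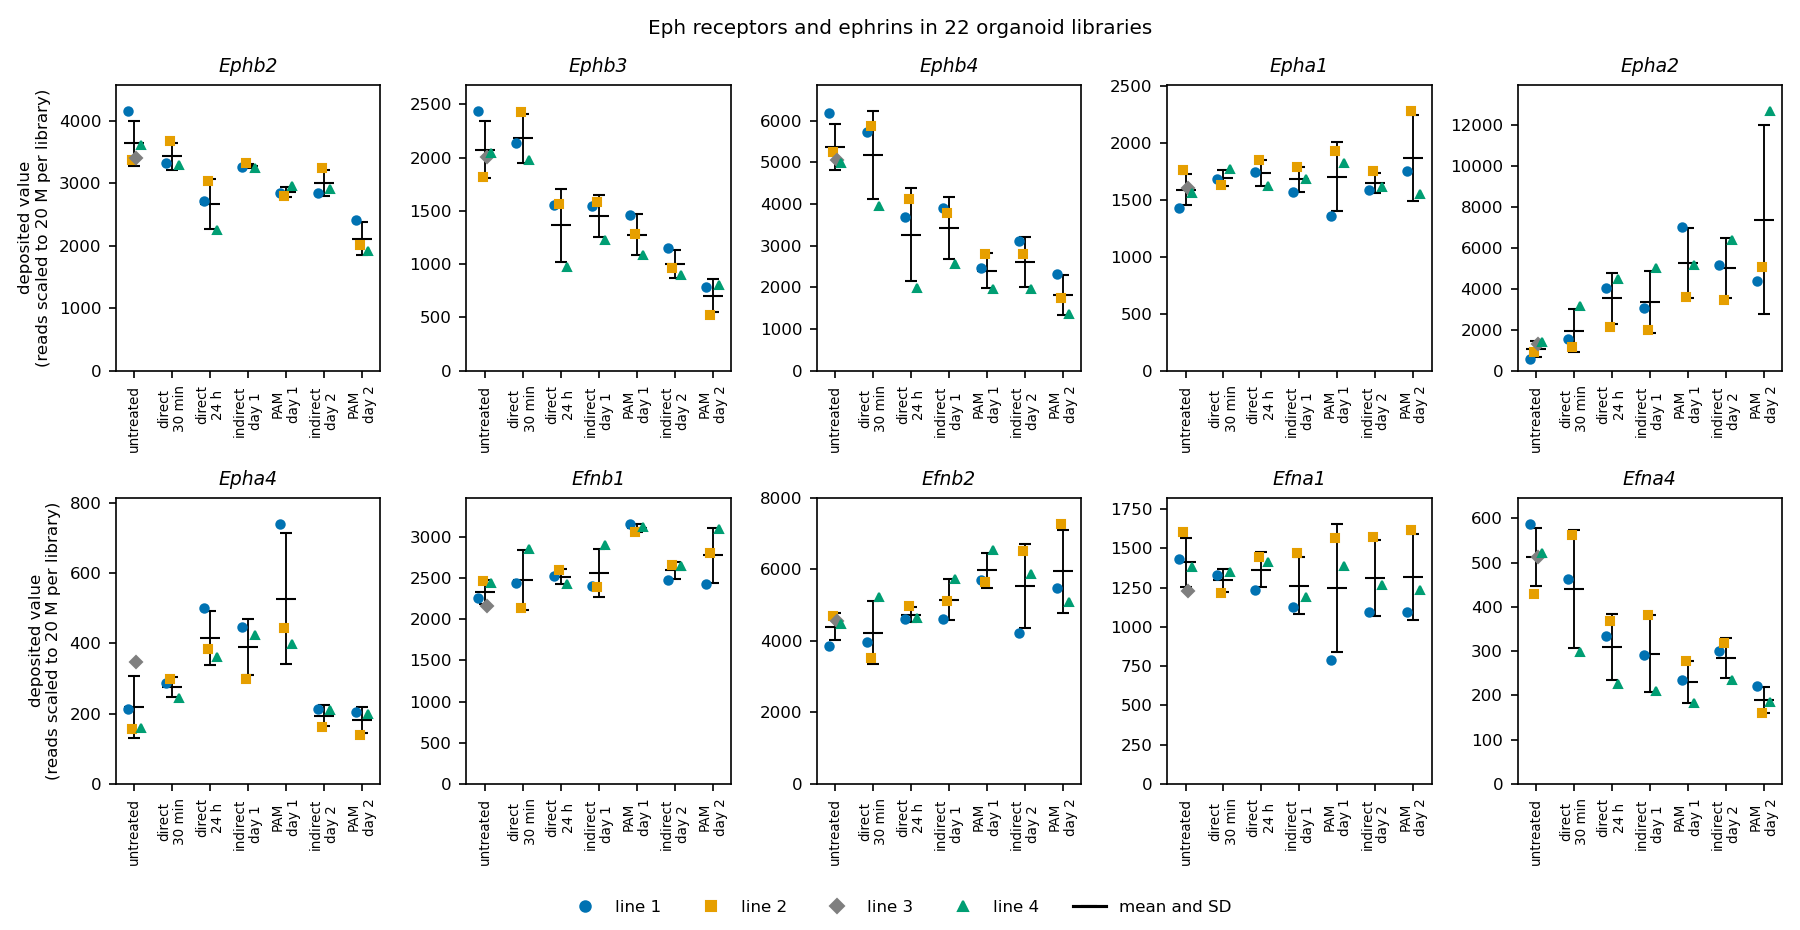
Deposited value (reads scaled to 20 M per library, vertical axes from 0) of the 10 members in each library, by group. Symbols stand for organoid lines, and the bar and whiskers for the mean and SD of a group (n = 4 untreated, n = 3 in each treated group). Epha2 is higher and Ephb3, Ephb4 and Efna4 are lower in the groups exposed for longer than 30 min. The mean of Epha4 is above its untreated mean of 219 in the 3 groups of 24 h from day 1 and below it in those of day 2.

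Epha2, a receptor for ephrin-A ligands that is often high in carcinomas, lies on chr4:141301240-141329384 (+ strand, GRCm38) and rose the most of the 10 members. Its value in untreated lines 1 to 4 was 578, 894, 1312 and 1401. In lines 1, 2 and 4 it was 1550, 1147 and 3143 after direct CAP for 30 min and 4020, 2113 and 4468 after direct CAP for 24 h. Under indirect CAP from day 1 it was 3058, 1977 and 4998. All 3 lines exposed for 24 h lay above the 4 untreated libraries in both of the longer exposures, whereas after 30 min line 2 lay within their range. With PAM from day 1 the values were 7020, 3600 and 5144, with indirect CAP from day 2 they were 5141, 3473 and 6394, and PAM from day 2 gave 4376, 5064 and 12719. In total 17 of 18 treated libraries were above all 4 untreated ones. Line 4 was the highest of the 3 lines in 5 of 6 treated groups and line 2 the lowest in 5 of 6. Set against the untreated library of its own line, Epha2 after PAM from day 2 was 7.57 times higher in line 1, 5.66 times in line 2 and 9.08 times in line 4. As said above, the folds of lines 1 and 2 are less certain.

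When the 9 libraries with an exposure of 24 h from day 1 were pooled and compared with the 4 untreated ones, 2 of 10 members were past the threshold, beside 6.34% of the 18490 genes tested. These were Epha2 and Epha4, both higher. The 9 libraries are 3 lines with 3 libraries each, which the fit takes as independent. With the libraries of a line averaged (3 lines against 4, an alternative chosen after seeing the data), Epha2 was still past the threshold (adjusted p = 0.00494) and Epha4 was not (adjusted p = 0.0251), beside 4.07% of genes past it. In the fit of 9 libraries Epha2 had a log2 fold change of 1.93 (SE 0.32, adjusted p = 0.000743), and 9 of 9 treated libraries were above all untreated ones. Epha4, a receptor that binds ephrins of both types, had a log2 fold change of 1.05 (SE 0.23, adjusted p = 0.00332), with 8 of 9 above. At an adjusted p under 0.05 whatever the fold, which 33.5% of genes met, 6 members differed. The other 4 of these, all lower, were Efna4 (log2 fold change -0.91), Ephb4 (-0.87), Ephb3 (-0.62) and Ephb2 (-0.31). The median log2 fold change was -0.02 over the 10 members and -0.05 over all genes. The Epha4 call rested on several libraries. It was lost on leaving out the untreated library of line 1 (log2 fold change 1.07, adjusted p = 0.0117), of line 2 (0.92, adjusted p = 0.0167) or of line 4 (0.93, adjusted p = 0.0161). When PAM from day 1 of line 1 was left out it ended short of the minimum fold (0.96, adjusted p = 0.00314).

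Taken group by group, 3 members were past the threshold with PAM from day 1 (10.2% of 17357 genes were), 3 with indirect CAP from day 2 (11.9% of 17860), and 4 with PAM from day 2 (17.3% of 17694). Epha2 was among them each time. Its log2 fold change was 2.36 (SE 0.33, adjusted p = 0.000983), 2.30 (SE 0.32, adjusted p = 0.000878) and 2.73 (SE 0.42, adjusted p = 0.0016) in these groups. No member was past the threshold by limma after direct CAP for 30 min, where 0.00564% of 17731 genes were and 4415 had an unadjusted p under 0.05. At an adjusted p under 0.05 it was again 0 members and 0.00564% of genes. None was after direct CAP for 24 h (2.17% of 17335 genes) or indirect CAP from day 1 (1.31% of 17818), where 5658 and 6869 genes had an unadjusted p under 0.05. In the last 2, Epha2 had log2 fold changes of 1.77 (SE 0.35, adjusted p = 0.0134) and 1.66 (SE 0.37, adjusted p = 0.0197). Line 3 has no treated library, so a fit with the line as a replicate block takes no part of the fold from it. When the line entered the fit in this way, Epha2 and Epha4 were past the threshold after direct CAP for 24 h (log2 fold changes 1.90 and 1.23, adjusted p = 0.00983 and 0.00592), as were 2.02% of genes. With that block both were also past it for indirect CAP from day 1 (1.79 and 1.14, adjusted p = 0.00836 and 0.00892), as were 1.81% of genes. Without line 2 of direct CAP for 24 h, Epha2 was past it too (2.10, adjusted p = 0.0087).

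**Figure D2:**
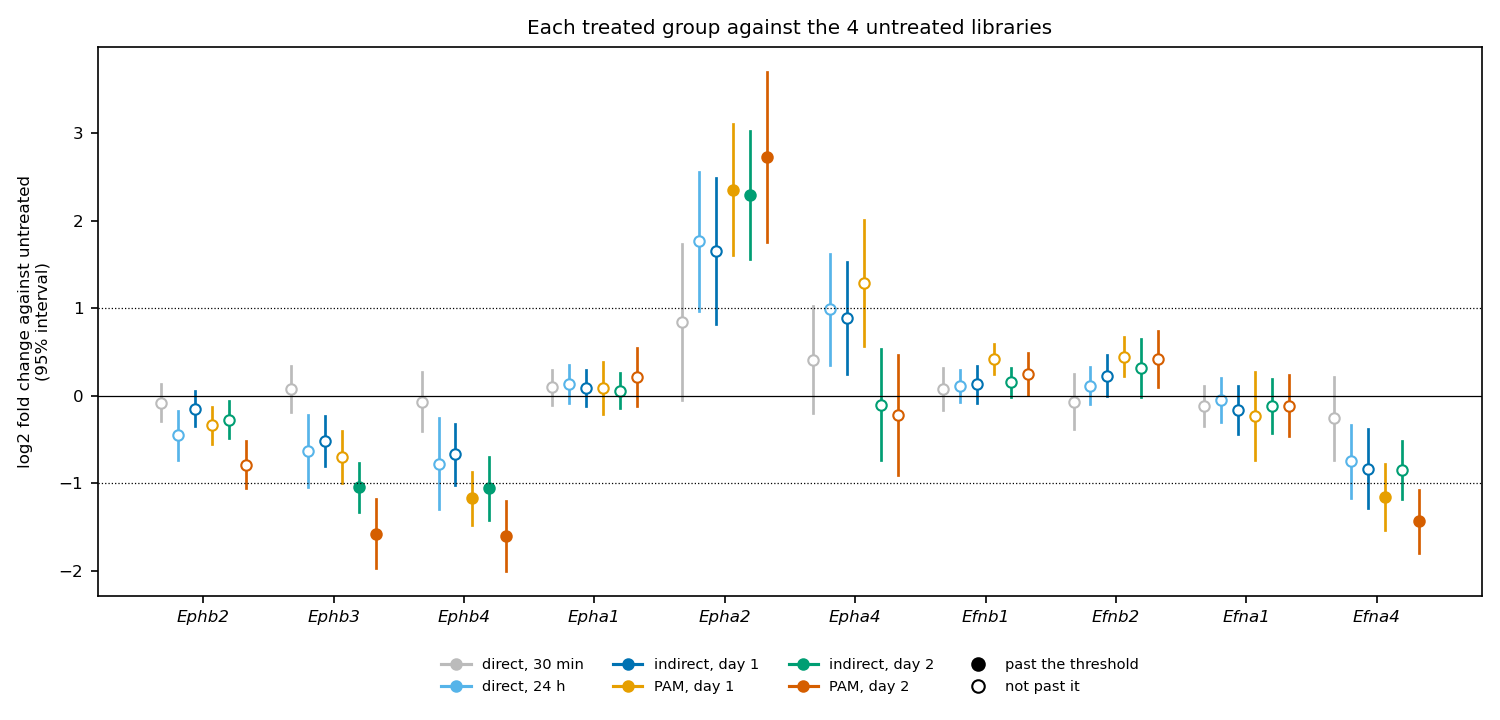
Log2 fold change of each member in each treated group (n = 3) against the 4 untreated libraries, with its 95% interval. Filled points are past the threshold (adjusted p under 0.01 and at least 1 either way, dotted lines), and open points are not: the filled points are those of Epha2, Ephb3, Ephb4 and Efna4.

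Among the EphB receptors, Ephb4, the partner of ephrin-B2 best known from vessels, fell past the threshold in 3 of 6 groups. It lies on chr5:137350109-137378669 (+ strand), and its values in untreated lines 1 to 4 were 6176, 5240, 5059 and 4990. They were 3682, 4112 and 1991 in lines 1, 2 and 4 after direct CAP for 24 h, 3907, 3783 and 2561 with indirect CAP from day 1, and 2462, 2789 and 1947 with PAM from day 1. From day 2 they were 3106, 2789 and 1949 with indirect CAP and 2307, 1752 and 1352 with PAM. None of these 15 libraries reached the lowest untreated value, and after direct CAP for 30 min 1 of 3 lay below it (3962, line 4). Line 4 was the lowest of the 3 lines in 6 of 6 treated groups. The log2 fold change was -1.17 with PAM from day 1 (SE 0.13, adjusted p = 0.000428) and -1.06 with indirect CAP from day 2 (SE 0.16, adjusted p = 0.00116). It was -1.60 with PAM from day 2 (SE 0.17, adjusted p = 0.000439). With indirect CAP from day 2 it ended under the minimum fold on leaving out untreated line 1 (-0.99, adjusted p = 0.00334) or line 4 of that group (-0.86, adjusted p = 0.00122). Exons of Ephb4 overlap those of Zan on the opposite strand, whose value was 141 to 474, and the strand setting of the counting is not given in the sources used here. The 5 endothelial markers, from the tissue for which Ephb4 is best known, summed to 12 to 33 in untreated organoids and 22 to 53 with PAM from day 2. Cdh5 and Emcn were at 0 in all untreated libraries, and Emcn alone was with PAM from day 2. Tek was 4 to 104 over the 22 libraries.

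Ephb3, an EphB receptor of crypt base and Paneth cells on chr16:21204755-21223305 (+ strand), was 2442, 1816, 2006 and 2039 in untreated lines 1 to 4. In lines 1, 2 and 4 it was 1465, 1278 and 1087 in the PAM group of day 1, 1151, 964 and 895 with indirect CAP from day 2, and 787, 522 and 803 with PAM from day 2. These 3 groups lay below the untreated range without overlap, as did direct CAP for 24 h (968 to 1568) and indirect CAP from day 1 (1227 to 1587). Direct CAP for 30 min overlapped it (1978 to 2431). Ephb3 was past the threshold in the groups of day 2, with a log2 fold change of -1.05 for indirect CAP (SE 0.12, adjusted p = 0.000367) and -1.58 for PAM (SE 0.17, adjusted p = 0.000445). The first of these became -0.98 with quantile normalization, -0.97 with untreated line 1 left out and -0.97 with line 4 of that group left out, each at an adjusted p under 0.01 but under the minimum fold. With PAM from day 1 the change was -0.70 (SE 0.13, adjusted p = 0.00353).

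Ephb2, which marks stem and progenitor cells of the crypt in a falling gradient, was past the threshold in no group. It was 4161, 3376, 3400 and 3604 in untreated lines 1 to 4 and 2404, 2008 and 1909 in lines 1, 2 and 4 with PAM from day 2, all 3 below the untreated range. The log2 fold change there was -0.79 (SE 0.12, adjusted p = 0.00132), under the minimum fold. In the other 5 groups it lay between -0.45 and -0.08, and 17 of 18 treated libraries in all were below the lowest untreated value.

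The ephrin-B ligands were among the 6 members that were past the threshold in none of the 6 treated groups taken singly. Efnb1 was 2256, 2466, 2166 and 2442 in untreated lines 1 to 4 and 3160, 3065 and 3117 in lines 1, 2 and 4 with PAM from day 1. These did not overlap (log2 fold change 0.42, SE 0.07, adjusted p = 0.00295). Efnb2 was 3846, 4705, 4547 and 4460 untreated and 5709, 5659 and 6546 with PAM from day 1, again with no overlap (0.44, SE 0.10, adjusted p = 0.00699). At an adjusted p under 0.05, which 41.8% of genes met with PAM from day 1, 8 of 10 members differed in that group, 4 lower and 4 higher. In the other groups the log2 fold changes lay between 0.08 and 0.25 for Efnb1 and between -0.07 and 0.42 for Efnb2. Of these 10, Efnb2 with PAM from day 2 was past an adjusted p of 0.05 (0.0361), in a group where 6 of 10 members and 47.6% of genes were.

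To read the EphB receptors beside their ligands, the summed level per kb of Ephb2, Ephb3 and Ephb4 was set against that of Efnb1 and Efnb2 in each library, as a description with no test. The size of this ratio, and of the share of Epha2 given below, depends on the exon lengths used. The ratio of receptors to ligands was 1.34 ± 0.221 (SD, n = 4) in untreated organoids, with a range of 1.19 to 1.67. It was 0.785 ± 0.208 after direct CAP for 24 h and 0.828 ± 0.206 with indirect CAP from day 1 (SD, n = 3). It was lower still with indirect CAP from day 2 (0.623 ± 0.162), PAM from day 1 (0.530 ± 0.080) and PAM from day 2 (0.403 ± 0.116). The highest ratio in these 5 groups was 0.976, so that their libraries all lay below the lowest untreated library, while after direct CAP for 30 min the range was 0.888 to 1.70.

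**Figure D3:**
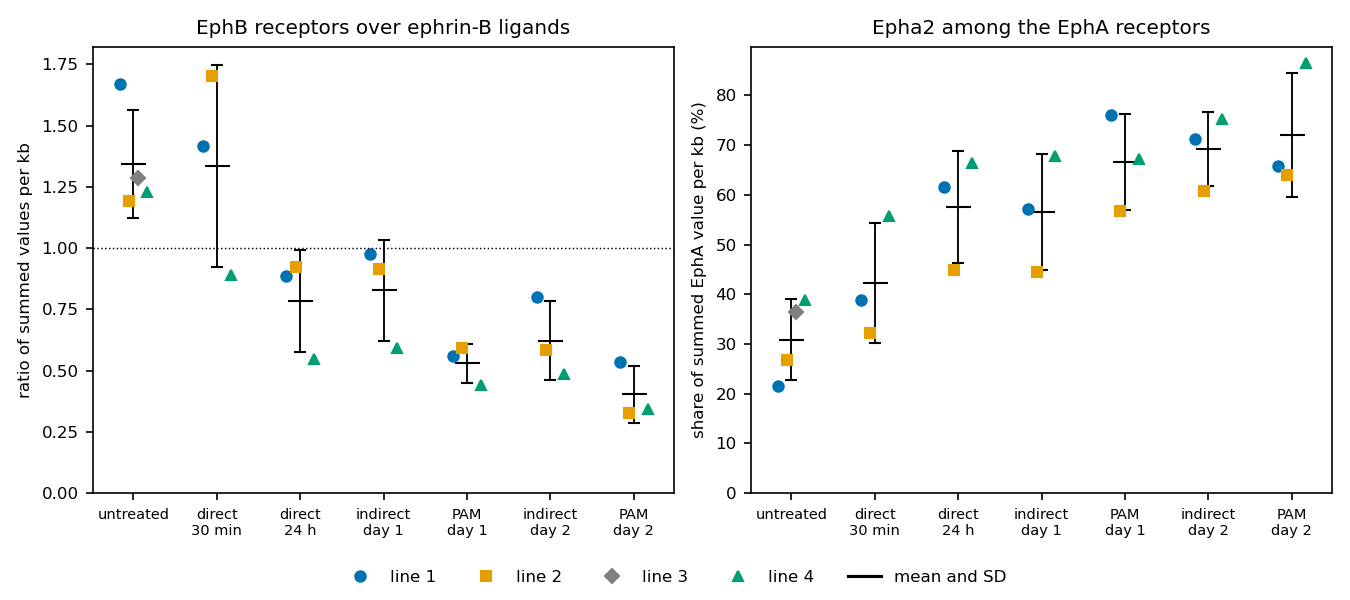
Left, summed level per kb of Ephb2, Ephb3 and Ephb4 over that of Efnb1 and Efnb2 (dotted line at 1), and right, the share of Epha2 in the summed level per kb of Epha1, Epha2, Epha4 and Epha7 (%), per library, with the mean and SD of each group (n = 4 untreated, n = 3 treated). The mean ratio is 1.34 in untreated organoids and 0.403 with PAM from day 2, and the mean share of Epha2 is 30.9% and 72.1%.

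Among the EphA receptors the balance moved as well. Epha2 made up 30.9% ± 8.14 (SD, n = 4) of the summed level per kb of Epha1, Epha2, Epha4 and Epha7 in untreated organoids. The share was 66.7% ± 9.69 after PAM of day 1 and 72.1% ± 12.5 after PAM of day 2 (n = 3). Epha1, a receptor of epithelial cells, was 1429 to 1763 untreated and 1361 to 2287 in the 18 treated libraries, with overlap in each group. Its log2 fold changes lay between 0.06 and 0.22 with adjusted p of 0.242 or above. For PAM from day 2, the largest of these, the 95% interval ran from -0.11 to 0.54. Exons of Epha1 overlap those of Zyx on the opposite strand, which had values of 1711 to 6235.

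Epha4, on chr1:77367185-77515088 (- strand), was low, at 212, 156, 347 and 160 in untreated lines 1 to 4, of which line 3, found in no treated group, was the highest. In lines 1, 2 and 4 it was 502, 385 and 360 after direct CAP for 24 h, 446, 300 and 423 with indirect CAP from day 1, and 741, 443 and 397 with PAM from day 1. Except for line 2 with indirect CAP, these 9 libraries lay above all 4 untreated ones. Exposure from day 2 left Epha4 at 213, 161 and 209 with indirect CAP and 205, 138 and 199 with PAM, within or below the untreated range. Against the untreated libraries the log2 fold change was 0.99 (SE 0.28, adjusted p = 0.0431), 0.89 (SE 0.28, adjusted p = 0.0564) and 1.29 (SE 0.32, adjusted p = 0.012) in these 3 groups of day 1, none past the threshold. It was -0.10 (SE 0.28, adjusted p = 0.787) and -0.22 (SE 0.30, adjusted p = 0.574) in the 2 of day 2. With PAM from day 1, Epha4 passed with the replicate block (1.54, adjusted p = 0.00306), as did 7.81% of genes. It also passed with quantile normalization (1.43, adjusted p = 0.00607), with all 7 groups in 1 fit (1.29, adjusted p = 0.000877) and without the untreated library of line 3 (1.54, adjusted p = 0.00398). The last is not separate from the block, which takes no fold from line 3, and both gave 1.54. In the fits of direct CAP for 24 h and indirect CAP from day 1, 17.3% and 20.6% of genes had an adjusted p under 0.05, as did 6 and 4 of the 10 members.

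The groups of day 2 were set against those of day 1 for each kind of medium. They differ in the day of exposure, in the age of the medium and in the time without it before collection, and these cannot be told apart. With indirect CAP, Epha4 had a log2 fold change of -0.99 (SE 0.19, 95% interval -1.45 to -0.53, adjusted p = 0.0459) and was lower in 3 of 3 libraries than in any of day 1. It was 1 of 10 members at an adjusted p under 0.05, which 3.37% of 17987 genes met. By limma 0 of 10 members and 0.0111% of genes were past the threshold, with 3906 genes at an unadjusted p under 0.05. With PAM the log2 fold change was -1.51 (SE 0.28, 95% interval -2.17 to -0.84, adjusted p = 0.0561). In that comparison 0% of 17354 genes were past either rule by limma, and 4651 had an unadjusted p under 0.05. The treated libraries pair by line. With the replicate block the adjusted p for Epha4 was 0.000221 with indirect CAP, where 4 of 10 members and 23.6% of genes were under 0.05. With PAM it was 0.0261, where 2 of 10 members and 10.6% of genes were. Epha4 dropped from day 1 to day 2 in each of lines 1, 2 and 4 for both kinds of medium.

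**Figure D4:**
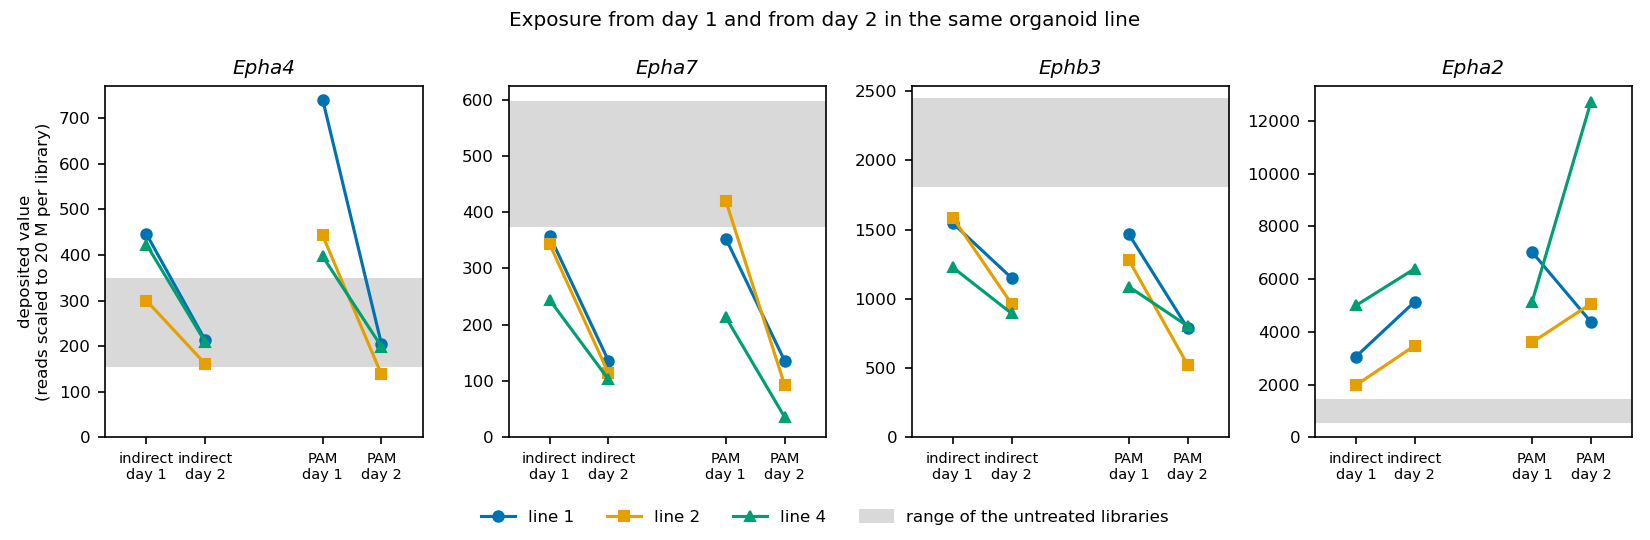
Deposited value (reads scaled to 20 M per library, vertical axes from 0) of Epha4, Epha7, Ephb3 and Epha2 for exposure from day 1 and from day 2 in lines 1, 2 and 4, joined by line, for indirect CAP and for PAM. The grey band is the range of the 4 untreated libraries. Epha4, Epha7 and Ephb3 are lower from day 2 in each line and medium, and Epha2 is higher in each except PAM in line 1, where it goes from 7020 to 4376.

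In the same comparisons Ephb3 had log2 fold changes of -0.53 (SE 0.14, adjusted p = 0.0889) with indirect CAP and -0.87 (SE 0.20, adjusted p = 0.07) with PAM. With the replicate block these adjusted p were 0.00191 and 0.0443. Epha2 had 0.64 (SE 0.36, adjusted p = 0.352) with indirect CAP, or 0.00128 with the block, and Ephb4 had -0.39 (SE 0.22, adjusted p = 0.366), or 0.00378 with the block. The other contrasts between treated groups gave 0 of 10 members past either rule. Direct CAP for 24 h against 30 min had 0% of 17668 genes past either rule by limma, with 3774 at an unadjusted p under 0.05. There Epha2 had a log2 fold change of 0.92 (SE 0.41), Ephb4 -0.71 (SE 0.29), Ephb3 -0.71 (SE 0.20) and Epha4 0.57 (SE 0.17), each at an adjusted p of 0.205 or above. With the replicate block the adjusted p was 0.0151 for Epha2, 0.017 for Ephb4, 0.0207 for Ephb3 and 0.0518 for Epha4, in a fit where 8.14% of genes had an adjusted p under 0.05. PAM from day 1 against direct CAP for 24 h had 0% of 17072 genes past the threshold by limma and 0.258% at an adjusted p under 0.05, with 1773 at an unadjusted p under 0.05. Epha2 was 0.59 there (SE 0.33, 95% interval -0.18 to 1.36, adjusted p = 0.563).

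The ephrin-A ligands differed from each other. Efna4, on chr3:89333390-89338028 (- strand), was 588, 430, 512 and 522 in untreated lines 1 to 4. It was 234, 277 and 182 in lines 1, 2 and 4 in the PAM group of day 1, and 221, 161 and 186 in that of day 2. These 6 libraries lay below the untreated range. Its log2 fold change was -1.16 (SE 0.17, adjusted p = 0.00108) and -1.44 (SE 0.16, adjusted p = 0.000447) in these groups. The first was no longer past the threshold with the replicate block (-1.16, adjusted p = 0.0104) or without line 4 of that group (-0.999, adjusted p = 0.00396, just under the minimum fold). With indirect CAP from day 2 it was -0.85 (SE 0.15, adjusted p = 0.00222), in a comparison where 5 of 10 members and 43.8% of genes had an adjusted p under 0.05. Efna4 shares exonic sequence with an antisense gene, 4731419I09Rik, that had values of 221 to 358, beside 161 to 277 for Efna4 itself in the PAM groups. Efna1, which lies near it on chromosome 3, was 1435, 1606, 1228 and 1381 untreated and 788 to 1621 in the treated libraries. Its log2 fold changes lay between -0.23 and -0.05 with adjusted p of 0.343 or above.

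Of the other 12 genes of the family in the table, Epha7, Efna3, Efna5 and Efnb3 passed the filter in each comparison with the untreated libraries. The remaining 8 had a value of at most 20 in any library. Epha7, a receptor for ephrin-A ligands, was 596, 564, 375 and 544 in untreated lines 1 to 4. It was 136, 114 and 103 in lines 1, 2 and 4 with indirect CAP from day 2 and 136, 93 and 36 with PAM from day 2, all 6 below the untreated range. Its log2 fold change was -2.12 (SE 0.18, adjusted p = 9.93e-05) and -2.71 (SE 0.41, adjusted p = 0.00143) in the groups of day 2, both past the threshold. It lay between -0.72 and -0.69 in those exposed for 24 h from day 1. Efna5, an ephrin-A ligand, was 8, 25, 27 and 16 untreated and 206, 77 and 68 with PAM from day 1 (95% interval of the log2 fold change 1.35 to 3.66, adjusted p = 0.00508). Over the 9 libraries of 24 h from day 1 its log2 fold change was 1.97 (SE 0.42, adjusted p = 0.00322). At such low values counting error is large.

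Of 37 genes on a list of Eph signalling partners (kinases, adaptors, exchange factors and phosphatases that act with Eph receptors), 35 were tested in the pooled comparison of 24 h. Of these, 2 were lower and 1 higher past the threshold, and the median log2 fold change was -0.01 where that of all genes was -0.05, beside the 6.34% of all genes past the threshold. Ptpro, a receptor phosphatase that acts on Eph receptors, had the lowest log2 fold change of the list (-2.13, SE 0.37, adjusted p = 0.00116). Tiam1, an exchange factor for Rac, was also lower (-1.02, SE 0.21, adjusted p = 0.00285). Kalrn, an exchange factor that acts in EphB signalling, had the highest (1.29, SE 0.24, adjusted p = 0.00152). With PAM from day 2, 4 were lower and 3 higher past the threshold of 34 tested, beside 17.3% of all genes.

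Since Ephb2 and Ephb3 are known as Wnt targets, 15 other Wnt target genes of the crypt were read beside them, 3 of which (Lgr5, Axin2 and Ascl2) are also among the stem cell markers. In the comparison of 24 h from day 1, 13 were tested, and 3 were lower and 1 higher past the threshold, with a median log2 fold change of -0.65, beside 6.34% of all genes and their median of -0.05. Lgr5, the stem cell receptor for R-spondins, was lowest (-3.17, SE 0.70, adjusted p = 0.00416). Nkd1 (-2.51, SE 0.48, adjusted p = 0.00189) and Axin2 (-1.91, SE 0.41, adjusted p = 0.00356), both feedback inhibitors of the pathway, were also lower. Ccnd1, which encodes cyclin D1, was highest (1.04, SE 0.18, adjusted p = 0.00107). With PAM from day 2, 7 of 13 were lower past the threshold and 0 higher by limma, beside 17.3% of all genes. The median was -1.44, where that of all genes was -0.12 and the change was -0.79 for Ephb2 and -1.58 for Ephb3. The summed value of the 5 stem cell markers was 32557 to 38876 untreated and 757 to 2747 with PAM from day 2. With PAM from day 1 it was 1306 to 2640, where the log2 fold change was -0.34 for Ephb2 and -0.70 for Ephb3. After direct CAP for 30 min it was 20274 to 32015, with -0.08 for Ephb2 and 0.07 for Ephb3. For the 6 Paneth cell markers the summed value was 22393 to 30696 untreated and 3747 to 16919 with PAM from day 2. The 5 goblet cell markers summed to 75087 to 132424 untreated and 17630 to 46941 with PAM from day 2, and 3 of them were lower at an adjusted p under 0.05. The 9 enterocyte markers went the other way as a sum, from 105968 to 124651 untreated to 141021 to 188691 with PAM from day 2. Singly, 2 of them were lower and 1 higher at that level, with a median log2 fold change of -0.44. The part of these cell types in the fall of Ephb2, Ephb3 and Ephb4 was not tested.

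Likeness of pattern was measured over the 22 libraries as the root mean square difference of log2(value + 1), after each gene's untreated mean was removed, among 19370 genes that passed the filter. Closest to Epha2 outside the members were Syt8 (0.274), Plcd3 (0.283) and Syt12 (0.284), where the median over all genes was 1.98. Closest to Epha4 were Akr1b10 (0.282), Ptpn14 (0.331) and Gm45546 (0.344), where the median was 0.941. A gene that stayed at its untreated mean would score 1.91 against Epha2 and 0.767 against Epha4.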

How the data were processed

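RNA-seq values were taken from 1 table of 22 libraries, 4 untreated and 3 in each of 6 treated groups. Per the study's methods, the authors mapped paired-end reads to GRCm38 with STAR and counted them per gene with HTSeq. The submitters' processing notes name STAR 2.5.3a, HTSeq 0.9.1 and Trimmomatic 0.36. Each entry of the table the authors deposited is a score, namely reads per gene scaled to 20 M per library and rounded up, so that each library sums to between 20007540 and 20016513 and low genes carry a large counting error. The study's legends name the unit per kilobase of transcript, but low values repeat at 1 common spacing over all genes of a library, so they were taken as not divided by length. Count tests were not used.

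limma 3.58.1 (R 4.3.3) was run on log2(value + 1) with a trended moderated test, taking only the groups compared and the genes that reached 10 in 3 or more of their libraries. Simulated libraries with 200 changed genes were used to check the script. Depth was estimated from the spacing of low values, with an error of at most 2.59% in 8 simulated libraries. Counts differed beyond sampling noise in 24 of 24 replicate pairs. Exon lengths, positions and overlaps came from GENCODE M21 on GRCm38, which held 52489 of the 52636 genes (99.7%). Scripts used Python 3.11.15 and figures matplotlib 3.10.9.

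The members and lists were chosen with earlier results of these data known. The genes named beside the members are the other genes of the family, the genes of 2 lists that were past the threshold or had the lowest or highest log2 fold change for 24 h from day 1, and the 3 genes closest in pattern to each member past the threshold there. By the library labels, a shared replicate number means a shared organoid line, and so a shared mouse. After group means were removed, 45 of 45 pairs of treated libraries of a line correlated (r = 0.219 to 0.806). The median between lines was -0.306, but removing the means of such small groups tends by itself to make these correlations negative. The untreated libraries of lines 1 and 2 correlated better with the treated libraries of the other line (median 0.541 and 0.353) than with their own (0.0751 and 0.132). The line labels of these 2 libraries are thus not borne out by this measure, and blocked comparisons with the untreated group are less certain. Alternatives were the line as a replicate block, quantile normalization, omission of the filter, a pseudocount of 10, 1 fit of all 7 groups, an adjusted p under 0.05 with any fold, and leaving out each library. P-values of fits without the block measure the spread between these lines and do not use the pairing of lines across groups. With the block they measure the spread left once differences between lines are removed. The pooled fit of 24 h takes 9 libraries of 3 lines as independent. Averaging the libraries of a line there was added after seeing the data.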

Additional observations from a re-analysis of the deposited data

Results flagged for a closer look

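The difference between indirect CAP from day 2 and from day 1 stood out for Epha4, where the 2 treated groups were tested directly against each other (log2 fold change -0.99, SE 0.19, adjusted p = 0.0459 by limma, lower in 3 of 3 libraries). Its size is just under the minimum fold of the threshold, and the adjusted p was between 0.0801 and 0.175 when any 1 of the 6 libraries was left out. The groups also differ in the age of the medium and in the time without it before collection, so day of exposure cannot be told apart from these. No untreated library lay far enough from the other 3 to stand out for any of the 10 members.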

How the results depend on the processing

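Among the alternative values for single members, 1035 kept their direction and their side of the threshold, 12 lost it and 19 changed sign. Another 34 became calls, 24 of these by the looser rule of an adjusted p under 0.05 with any fold. Members that changed little between treated groups were left out of this count. An example is Epha2 for PAM from day 2 against day 1 (log2 fold change 0.37, or -0.11 to 0.66 with 1 library left out). At an adjusted p under 0.05 with any fold, members differing from untreated numbered 6 in the pooled 24 h, 6 with direct CAP for 24 h, 8 and 4 with PAM and indirect CAP from day 1, and 5 with indirect CAP from day 2, while 1 differed between indirect CAP of day 2 and of day 1. With each line averaged, 1 member was past the threshold in the pooled 24 h. The replicate block gave 2 members past the threshold for direct CAP for 24 h and 2 for indirect CAP from day 1, and all 7 groups in 1 fit gave 1 for PAM from day 2 against day 1. With PAM from day 1 the block ended the call for Efna4 and made one for Epha4, and it changed no other call at the threshold. Line 3 has no treated library, so with the block it gives nothing to a fold against untreated. For Epha4 with PAM from day 1, the block and the fit without the untreated library of line 3 gave the same log2 fold change, 1.54. What else lay behind these moves was not tested.

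When any 1 library was left out, the number past the threshold was 1 to 2 for the pooled 24 h, 0 to 1 for 24 h of direct CAP, 2 to 4 for PAM given from day 1 and 1 to 3 for indirect CAP from day 2. No member was past the threshold by limma after direct CAP for 30 min under any alternative.

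The changes of sign that were counted were all in small effects. Epha4 against untreated became 0.013 (indirect CAP, day 2) and 0.11 (PAM, day 2) with quantile normalization, and 0.15 and 0.030 with the replicate block. Leaving out 1 library gave log2 fold changes for direct CAP for 30 min of -0.0061 to 0.16 (Ephb3), -0.17 to 0.12 (Ephb4), -0.46 to 0.0023 (Efna4), -0.030 to 0.18 (Efnb1) and -0.23 to 0.055 (Efnb2). The ranges for Efna1 were -0.11 to 0.023 for 24 h of direct CAP, -0.43 to 0.070 for PAM from day 1, -0.26 to 0.0051 for indirect CAP from day 2 and -0.27 to 0.011 for PAM from day 2. Those for Epha4 were -0.24 to 0.15 and -0.35 to 0.030 for the day 2 groups of indirect CAP and of PAM, and that for Epha1 with PAM from day 1 was -0.0099 to 0.24.

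Quantile normalization shifted the median over all genes by 0.109 with PAM from day 2 and by less than 0.1 in the other comparisons, and the 4 members past the threshold there were still past it. Scaling to 20 M sets a level relative to the rest of a library, so a change of a member here is a change of its share of reads. With 3 or 4 lines a group, small changes such as those of Epha1 and Efna1 could not be told from the spread between lines.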
